A study of Mus musculus with 9 samples.

Results

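A group of 9 complement genes was followed through mouse skin: the protease genes C1ra, C1rb, C1s1 and C1s2, the genes C4b and C4a of the fourth component, C2, C3 and Cfb. They were taken by name from gene tables of 49585 genes and make up 9 of these. They were chosen by their total and unique exon reads in these same libraries, so every value given for them is a description and carries no test. Total exon reads are all reads a table gives to the exons of a gene, and unique exon reads are those placed at a single position. RNA from skin was sequenced in 9 libraries, 3 of each of 3 kinds of mice. The IL-6 KO-labelled libraries came from mice described as lacking interleukin-6, with C57BL/6 as their strain label. The BALB/c and C57BL/6 libraries came from wild-type mice of these inbred strains, and C57BL/6 was the control. All mice were bought when 4 to 5 weeks old and acclimated for 2 weeks. At the start their age was 6 weeks. The protocol was the same for all groups, with shaving on day 0, no treatment for 7 days and collection of skin on day 8. Neither the sex of the mice nor the allele behind the IL-6 label is given in the labels. The labels count 6 IL-6 KO, 3 BALB/c and 3 C57BL/6 mice and tie no library to a mouse. The p-values below therefore measure only how far libraries spread, which may be technical.

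Complement is a cascade of plasma proteins that tags microbes and damaged cells. In the classical pathway the recognition molecule C1q activates the protease C1r, C1r activates the protease C1s, and C1s cuts C4 and C2, whose fragments form the enzyme that cuts C3. In the alternative pathway factor B, the product of Cfb, takes the place of C2 in that enzyme. The liver makes most circulating complement, and fibroblasts, keratinocytes and macrophages of the skin make several components locally. In mice the genes of C1r, C1s and C4 each exist as a pair of near-identical neighbours. C1rb and C1s2 were described mainly from male reproductive tissues of mice, and C4a is the mouse gene of sex-limited protein, which liver of some strains makes under androgen.

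The libraries held 3843953 to 6882193 total exon reads, with the 3 lowest totals in the IL-6 KO-labelled libraries. Il6, the targeted gene, had 6, 24 and 1 total exon reads in the IL-6 KO-labelled libraries, against 0, 2 and 0 in the BALB/c libraries and 2, 1 and 0 in the C57BL/6 libraries. The number of exon reads therefore runs against the label, and each direction given for these libraries rests on the label. Intron reads of Il6 numbered 7, 12 and 5 in the IL-6 KO-labelled libraries and 0 in each other library. Junctions were crossed by 9 of its 31 exon reads in the IL-6 KO-labelled libraries, 0 of 2 in BALB/c and 3 of 3 in C57BL/6. What these reads come from was not tested. The labels do not name the altered part of Il6, so reads from a shortened transcript would be counted as well. Within the IL-6 KO-labelled libraries, replicate 2 was the highest for C1ra, C1s1, C4b, C2, C3 and Cfb, and values without it are given below. Levels are total exon reads scaled to library size (CPM), with a mean ± SD over 3 libraries. Fold changes are log2 values ± SE from edgeR's quasi-likelihood fit over all 9 libraries, and a gene is called where the Benjamini-Hochberg adjusted p over all 14415 genes tested was under 0.05. All intervals and floors below cover only the error of counting reads.

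The pairs lie on 2 chromosomes of the mouse genome GRCm38. C1ra (chromosome 6, 124512405 to 124523443, plus strand), C1s1 (124530345 to 124542359, minus strand), C1rb (124570294 to 124581171, plus strand) and C1s2 (124624625 to 124636085, minus strand) alternate along chromosome 6. C4b (chromosome 17, 34728380 to 34743882), C4a (34809092 to 34823464), Cfb (34856374 to 34862518) and C2 (34862604 to 34898265) follow each other on the minus strand of chromosome 17, in the major histocompatibility region. C3 stands alone at 57203970 to 57228136 of chromosome 17, minus strand. The annotation deposited with the counts classes C4a as a processed transcript and the other 8 genes as protein coding.

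How far reads can tell the copies apart depends on the letters in which they differ. Aligned to each other, the reference transcripts of C1ra and C1rb were 98.15% identical over 2427 aligned bases, with 45 mismatches and a longest identical run of 757 bases. C1s1 and C1s2 were 96.06% identical over 2641 bases, with 104 mismatches and a longest run of 229 bases. C4b and C4a were 96.19% identical over 5357 bases, with 204 mismatches and a longest run of 433 bases. The C1r pair is thus the hardest to separate by sequence. For each pair the 60-base coding stretch with the most differences is shown, read 5′ to 3′ along the transcripts of GENCODE vM21, because reads over such stretches are the ones that name a copy. Capitals mark the bases that differ between the copies, 11 in the C1r and C1s stretches and 13 in the C4 stretch. The stretches span transcript bases 2192 to 2251 of C1ra, 1958 to 2017 of C1rb, 1762 to 1821 of C1s1, 1536 to 1595 of C1s2, 2761 to 2820 of C4b and 2745 to 2804 of C4a.
C1ra: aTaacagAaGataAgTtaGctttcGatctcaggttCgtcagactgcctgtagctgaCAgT
C1rb: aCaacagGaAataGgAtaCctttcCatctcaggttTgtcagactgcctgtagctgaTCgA
C1s1: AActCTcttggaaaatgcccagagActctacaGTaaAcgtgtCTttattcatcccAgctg
C1s2: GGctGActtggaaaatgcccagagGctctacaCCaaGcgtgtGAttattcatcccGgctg
C4b: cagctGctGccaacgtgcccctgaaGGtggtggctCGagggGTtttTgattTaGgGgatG
C4a: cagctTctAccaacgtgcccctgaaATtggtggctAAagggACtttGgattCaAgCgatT

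The share of uniquely placed reads was uneven among the 9 genes. C3, which shares no 50-base window with another annotated gene, had 100% unique reads in each library. C4b had a median of 96.1% and C4a of 96.9%, although 35.2% of the windows of C4b and 35.3% of those of C4a are found in the other copy. Nearly all reads of these 3 genes had a single placement. C1ra had a median of 75.7% (71.7 to 83.5%) and shares 50.8% of its windows, mostly with C1rb. C1s1 had a median of 67.1% (64.4 to 69.7%), and shares 24.3% of its windows with C1s2 and 15.02% with an antisense transcript, Gm16567, which had no read in any library. Cfb had a median of 9% and C2 of 34.6%, the lowest of the 9, and an annotated gene that runs over both, Gm20547, holds 81.8% of the windows of Cfb and 58.0% of those of C2. Where reads have several placements, the share a copy received depends on the authors' counting, and the levels of Cfb, C2, C1ra, C1rb and C1s1 are uncertain to that extent.

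**Figure D1:**
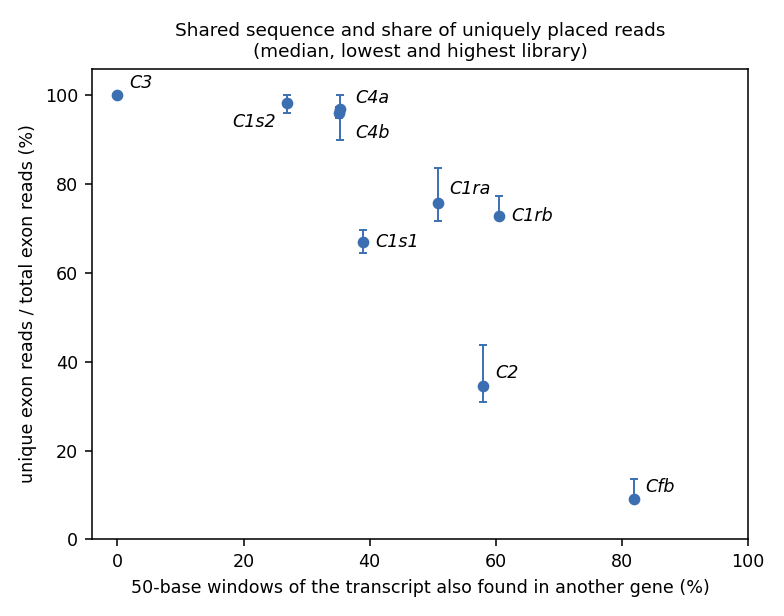
Share of total exon reads that were placed uniquely (vertical axis, percent; point, median; bars, lowest and highest library with reads) against the share of 50-base windows of the reference transcript that occur in another annotated gene (horizontal axis, percent), for the 9 complement genes. C3 sits at 0% shared windows and 100% unique reads, and Cfb at 81.8% shared windows and a median of 9% unique reads.

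C1r starts the proteolytic steps of the classical pathway, and its reads fell on a single copy in the libraries of C57BL/6 label and on both copies in BALB/c. C1rb had 0 total exon reads in each of the 3 IL-6 KO-labelled libraries, 96, 101 and 115 in the BALB/c libraries and 0 in each C57BL/6 library. Reads were thus placed on C1rb in every BALB/c library and in none of the other 6. Whether these reads came from C1rb or from the near-identical C1ra was not tested, and the folds below carry this limit. Unique exon reads gave the same picture, with 0 in each library labelled IL-6 KO, 70, 78 and 83 in BALB/c and 0 in each C57BL/6 library. Against the floor of 3 reads over a group, C1rb was at least 75.5-fold lower in the IL-6 KO-labelled libraries than in BALB/c, and at least 105-fold higher in BALB/c than in C57BL/6.

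C1ra had 255, 742 and 370 total exon reads in the IL-6 KO-labelled libraries, 509, 766 and 731 in the BALB/c libraries and 1015, 510 and 594 in C57BL/6. Scaled to library size, C1ra stood at 98.8 ± 45.3 CPM in the IL-6 KO-labelled libraries, 109 ± 24.6 CPM in BALB/c and 114 ± 40.0 CPM in C57BL/6. The 3 groups overlapped, with replicate 2 the highest in the IL-6 KO-labelled libraries and replicate 1 the highest in C57BL/6. The log2 fold change of C1ra was -0.07 ± 0.344 for BALB/c against C57BL/6, -0.20 ± 0.346 for the IL-6 KO-labelled libraries against C57BL/6 and -0.14 ± 0.346 for them against BALB/c. With the copies added, C1r reads stood at 98.8 ± 45.3 CPM in the IL-6 KO-labelled libraries, 126 ± 25.8 CPM in BALB/c and 114 ± 40.0 CPM in C57BL/6. The groups overlapped in this sum. Its log2 fold change was 0.14 ± 0.340 for BALB/c against C57BL/6, -0.20 ± 0.342 for the IL-6 KO-labelled libraries against C57BL/6 and -0.34 ± 0.342 for them against BALB/c. Without replicate 2 of the IL-6 KO-labelled libraries the last was -0.79.

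C1rb took 15.9%, 11.7% and 13.6% of the C1r reads in the BALB/c libraries, with 95% Wilson intervals from 9.68% to 19.0%. The mean share was 13.7 ± 2.11% (SD, n = 3) of total reads, 12.9 ± 1.90% of unique reads and 16.3 ± 2.44% per base of exon length. In the other libraries the share was 0, which at a floor of 3 reads allows up to 0.404 to 1.18% in the IL-6 KO-labelled libraries and 0.296 to 0.588% in C57BL/6. The BALB/c shares lie above each of these limits.

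The C1rb reads of BALB/c and those of C1ra differed in where they lay. None of the 231 unique exon reads of C1rb crossed an exon-exon junction, which at 3 reads allows a share of up to 1.30%. In the same libraries 39.2%, 32.6% and 31.6% of the unique reads of C1ra crossed a junction. Total junction reads of C1rb, which may have other placements, were 14, 16 and 16. Of the 10 junctions of C1rb, 1 lies at the centre of a 50-base window found in no other gene, against 2 of 10 for C1ra. The read length is not given, so these windows do not set how many junction reads can name a copy. Why C1rb had no unique junction read was not tested. The junction share of C1ra itself was 37.7 to 41.0% in the IL-6 KO-labelled libraries, 31.6 to 39.2% in BALB/c and 40.1 to 42.3% in C57BL/6. The BALB/c libraries lay below the C57BL/6 libraries and overlapped the IL-6 KO-labelled ones.

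C1s is the protease that cuts C4 and C2. C1s2 had 0, 2 and 2 total exon reads in the IL-6 KO-labelled libraries, 50, 56 and 53 in the BALB/c libraries and 0, 0 and 3 in C57BL/6. The BALB/c libraries were close to each other and far above all others. Over the groups this is 4, 159 and 3 reads, a ratio of 53.4 for BALB/c over C57BL/6 with a counting interval of 17.9 to 262. The IL-6 KO-labelled libraries were lower than BALB/c by a ratio of 28.9 (counting interval 11.1 to 107). The log2 fold change of C1s2 for BALB/c against C57BL/6 was 5.54 ± 0.740. It was 4.95 without C57BL/6 replicate 2, and 8.61 without C57BL/6 replicate 3, which holds all 3 reads of its group, a fitted value against 0 reads that is no bound. Unlike C1rb, C1s2 had junction reads in BALB/c, 33, 37 and 34 of 48, 54 and 51 unique exon reads.

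C1s1 had 421, 1240 and 613 total exon reads in the IL-6 KO-labelled libraries, 942, 1072 and 943 in the BALB/c libraries and 1667, 853 and 1077 in C57BL/6. Its level was 164 ± 76.5 CPM in the IL-6 KO-labelled libraries, 160 ± 15.5 CPM in BALB/c and 194 ± 64.6 CPM in C57BL/6. The groups overlapped, and the BALB/c libraries spread least. Its log2 fold change was -0.28 ± 0.327 for BALB/c against C57BL/6, and it was -0.24 ± 0.327 for the IL-6 KO-labelled libraries against C57BL/6. With C1s2 added, the log2 fold change of C1s reads was -0.20 ± 0.327 for BALB/c against C57BL/6, within its error. C1s2 took 0.162 ± 0.163% of the C1s reads in the IL-6 KO-labelled libraries, 5.11 ± 0.188% in BALB/c and 0.0926 ± 0.160% in C57BL/6. By unique reads the BALB/c share was 7.30 ± 0.256%, and C1s1 had the lower share of unique reads of these copies.

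The junction share of C1s1 also set the BALB/c libraries apart. Of its unique exon reads, 50.4%, 54.8% and 54.3% crossed a junction in the IL-6 KO-labelled libraries, 41.9%, 36.2% and 35.6% in the BALB/c libraries and 49.8%, 49.7% and 61.2% in C57BL/6. Each BALB/c library was below each of the other 6. The number of unique exon reads behind these shares was 286 to 864 in the IL-6 KO-labelled libraries, 623 to 690 in BALB/c and 572 to 1147 in C57BL/6. The junction share of C4b was also lowest in BALB/c. It was 89.07 to 89.45% in the IL-6 KO-labelled libraries, 83.89 to 85.38% in BALB/c and 86.07 to 86.64% in C57BL/6. That of C3 overlapped between the groups. Whether strain differences in sequence, splicing or read placement go with this was not tested.

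**Figure D2:**
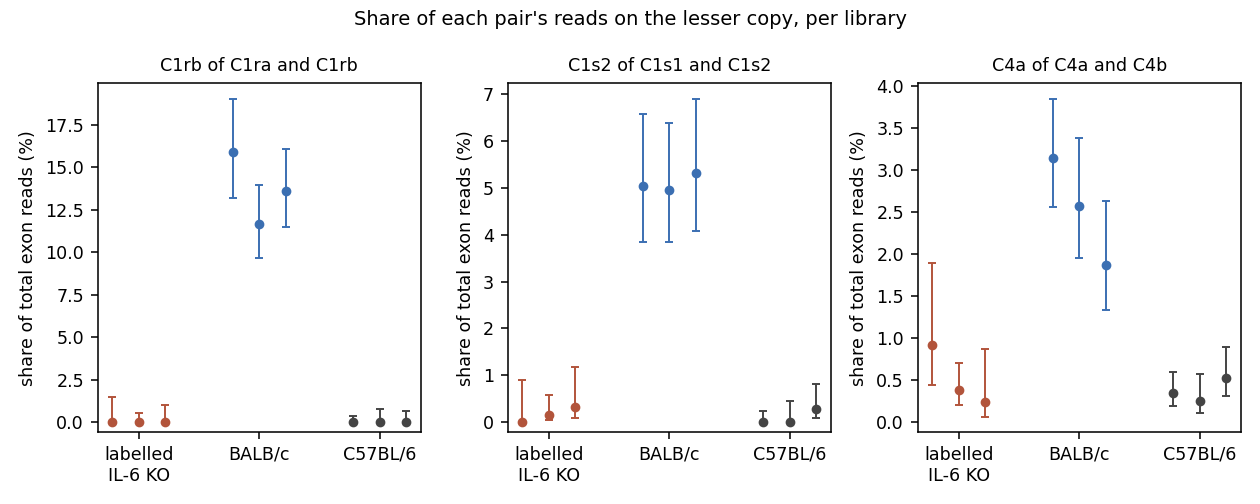
Share of the total exon reads of each pair that fell on the lesser copy (vertical axes, percent, each panel with its own scale), one point per library in replicate order with its 95% Wilson interval, for the IL-6 KO-labelled libraries, BALB/c and C57BL/6. The 3 BALB/c points lie above all others in each panel, at 11.7 to 15.9% for C1rb, 4.97 to 5.32% for C1s2 and 1.87 to 3.14% for C4a.

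C4 is the component that the C1 complex cuts and that then binds covalently to surfaces. C4b was by far the larger copy, with 752, 2584 and 829 total exon reads in the IL-6 KO-labelled libraries, 2745, 1856 and 1676 in the BALB/c libraries and 3496, 2020 and 2451 in C57BL/6. Its level was 300 ± 195 CPM in the IL-6 KO-labelled libraries, 338 ± 86.5 CPM in BALB/c and 430 ± 120 CPM in C57BL/6. All groups overlapped, and replicate 2 of the IL-6 KO-labelled libraries, at 525 CPM, was close to the highest C57BL/6 library, at 536 CPM. Its log2 fold change was -0.35 ± 0.412 for BALB/c against C57BL/6, -0.52 ± 0.413 for the IL-6 KO-labelled libraries against C57BL/6 and -0.17 ± 0.412 for them against BALB/c.

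C4a had 7, 10 and 2 total exon reads in the IL-6 KO-labelled libraries, 89, 49 and 32 in the BALB/c libraries and 12, 5 and 13 in C57BL/6. Each BALB/c library was above each other library, and unlike C1rb and C1s2 the gene had reads in all 9. Over the groups this is 19, 170 and 30 reads, a ratio of 5.71 for BALB/c over C57BL/6 with a counting interval of 3.86 to 8.72. The IL-6 KO-labelled libraries were lower than BALB/c by a ratio of 6.50 (counting interval 4.03 to 11.1). C4a took 0.516 ± 0.359% of the C4 reads in the IL-6 KO-labelled libraries, 2.53 ± 0.635% in BALB/c and 0.372 ± 0.143% in C57BL/6. Junctions were crossed by 79, 46 and 26 of its 85, 48 and 31 unique exon reads in BALB/c. With the copies added, C4 reads stood at 301 ± 196 CPM in the IL-6 KO-labelled libraries, 348 ± 91.1 CPM in BALB/c and 432 ± 120 CPM in C57BL/6, and the groups overlapped.

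C2 and Cfb encode the serine proteases of the enzymes that cut C3, C2 in the classical and Cfb in the alternative pathway. C2 had 98, 247 and 147 total exon reads in the IL-6 KO-labelled libraries, 288, 183 and 234 in the BALB/c libraries and 361, 187 and 301 in C57BL/6. Its level was 35.7 ± 12.8 CPM in the IL-6 KO-labelled libraries, 38.0 ± 7.69 CPM in BALB/c and 46.3 ± 16.0 CPM in C57BL/6. These groups overlapped, and the log2 fold changes lay within 0.37 of 0, with SEs up to 0.317. Without replicate 2 of the IL-6 KO-labelled libraries, those of these libraries were -0.70 against C57BL/6 and -0.41 against BALB/c.

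Cfb had 126, 498 and 228 total exon reads in the IL-6 KO-labelled libraries, 456, 400 and 418 in the BALB/c libraries and 372, 111 and 261 in C57BL/6. Its level was 60.9 ± 35.7 CPM in the IL-6 KO-labelled libraries, 68.8 ± 3.20 CPM in BALB/c and 40.7 ± 21.4 CPM in C57BL/6. The BALB/c libraries, 66.4 to 72.4 CPM, lay above the C57BL/6 libraries, 16.5 to 57.1 CPM, while the IL-6 KO-labelled ones lay at 33.3, 101 and 48.3 CPM, 1 above the BALB/c libraries and the others among the C57BL/6 ones. Cfb was not called in any of the 3 comparisons, with a log2 fold change of 0.76 ± 0.463 for BALB/c against C57BL/6. Its unique exon reads numbered 12, 42 and 19 in the IL-6 KO-labelled libraries, 41, 36 and 51 in the BALB/c libraries and 31, 15 and 28 in C57BL/6, so its level rests on reads with several placements.

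The overlapping gene Gm20547 had 23, 56 and 0 total exon reads in the IL-6 KO-labelled libraries, 66, 53 and 0 in the BALB/c libraries and 24, 0 and 73 in C57BL/6, with no more than 1 unique read in a library. It was thus at 0 in 1 library of each group. Added together, Cfb, C2 and Gm20547 stood at 102 ± 52.7 CPM in the IL-6 KO-labelled libraries, 113 ± 13.4 CPM in BALB/c and 92.7 ± 41.9 CPM in C57BL/6. The groups overlapped in this sum, which was chosen after its values were seen, and its log2 fold change for BALB/c against C57BL/6 was 0.29 ± 0.404.

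C3 is the component on which the pathways meet. It had 810, 2683 and 616 total exon reads in the IL-6 KO-labelled libraries, 3894, 3103 and 3157 in the BALB/c libraries and 4006, 1939 and 3486 in C57BL/6. Its level was 296 ± 219 CPM in the IL-6 KO-labelled libraries, 548 ± 61.0 CPM in BALB/c and 516 ± 198 CPM in C57BL/6. Replicates 1 and 3 of the IL-6 KO-labelled libraries, at 214 and 131 CPM, were the lowest of the 9 libraries, and replicate 2, at 545 CPM, was among the BALB/c values. The log2 fold change was 0.09 ± 0.478 for BALB/c against C57BL/6, -0.80 ± 0.482 for the IL-6 KO-labelled libraries against C57BL/6 and -0.89 ± 0.483 for them against BALB/c. In bulk skin, fewer cells of a type and less RNA per cell cannot be told apart.

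**Figure D3:**
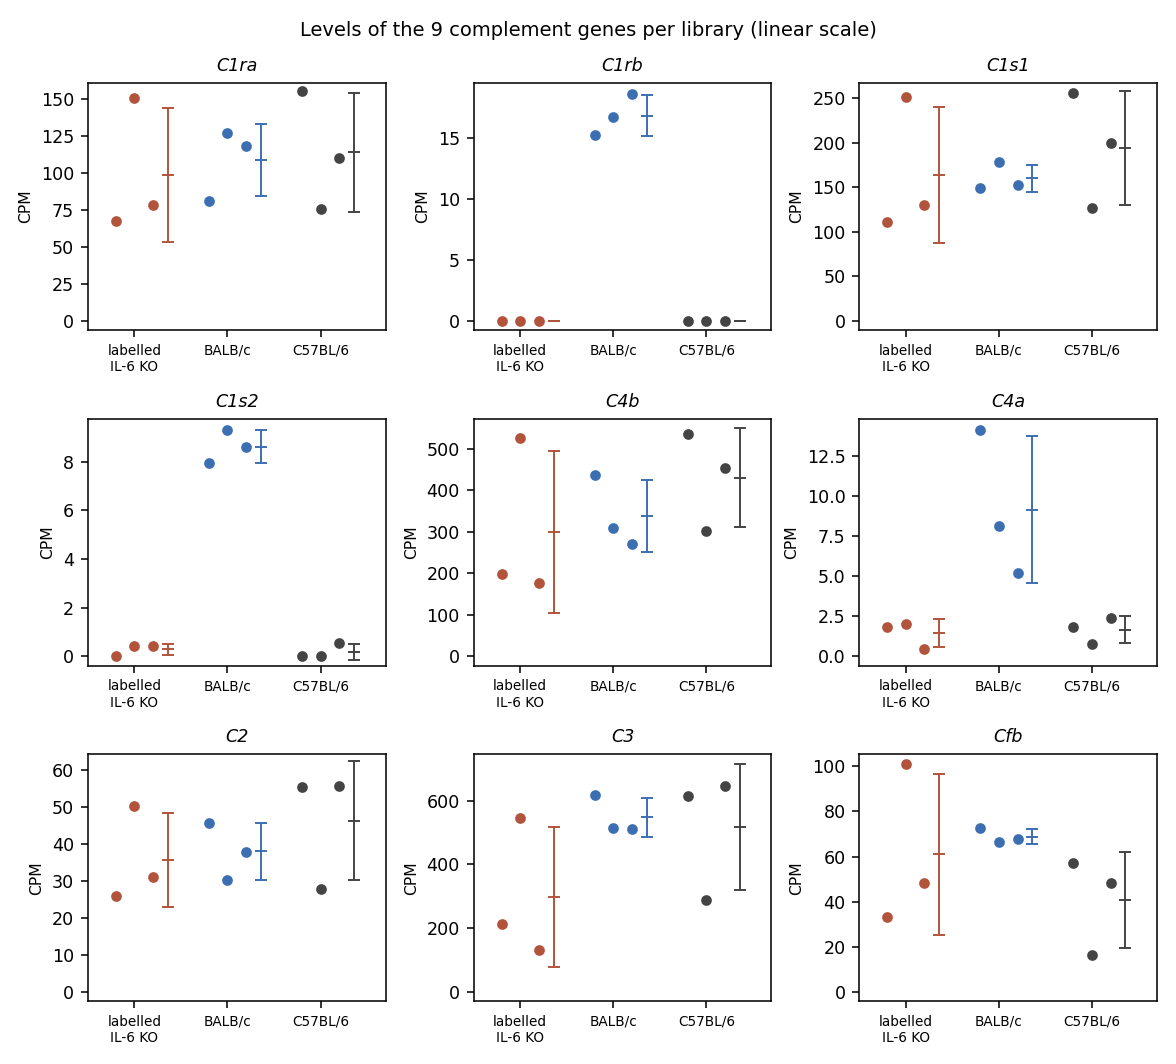
Level of each of the 9 complement genes (vertical axes, CPM, linear, each panel with its own scale) in each library, in replicate order, with the mean ± SD over 3 libraries at the right of each group. C1rb, C1s2 and C4a are highest in the 3 BALB/c libraries, whereas the other 6 genes overlap between groups except for Cfb in BALB/c and C57BL/6.

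Across comparisons, the lesser copies stood apart in BALB/c while the sums of the pairs overlapped between all groups. In BALB/c the lesser copies held on average 13.7% (C1rb), 5.11% (C1s2) and 2.53% (C4a) of the pair reads. Each sum therefore had to lie close to its larger copy, which overlapped too, and nothing is read from the overlap of the sums. For BALB/c against C57BL/6, 3 of the 9 genes were called, all higher (C1rb, C1s2 and C4a), beside 3.41% of all genes tested, 1.63% called higher and 1.78% called lower. Groups did not overlap in 4 of the 9, these 3 and Cfb, beside 30.2% of all genes, and all 4 were higher, beside 14.6% of all genes. For the IL-6 KO-labelled libraries against C57BL/6, 0 of 9 were called by edgeR beside 35.2% of all genes, with 0 of 9 at an unadjusted p under 0.05 and 0 by DESeq2. For the IL-6 KO-labelled libraries against BALB/c the same 3 copies were called lower, beside 37.2% of all genes, 17.4% called lower and 19.9% called higher. The rule that chose the genes used these contrasts, and C1rb and C1s2 passed the filter on low reads through BALB/c alone, so nothing is read from these counts. The 3 comparisons share libraries, and the BALB/c values behind the last are those behind the first. C4a ceased to be called for BALB/c against C57BL/6 with the replicate block, without any one of the C57BL/6 or BALB/c libraries and without replicate 1 of the IL-6 KO-labelled libraries, whereas C1rb and C1s2 were called in each of these.

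The larger genes compared differently without replicate 2 of the IL-6 KO-labelled libraries. The log2 fold change against C57BL/6 was then -1.59 for C3, -1.20 for C4b, -0.65 for C1ra, -0.69 for C1s1 and 0.01 for Cfb, and C3 and C4b were called lower, beside 46.1% of all genes called in that fit. Against BALB/c it was then -1.67 for C3, -0.86 for C4b and -0.75 for Cfb, and C3 and C4b joined C1rb, C1s2 and C4a as called lower, beside 47.7% of all genes. With all 3 libraries none of C3, C4b, C1ra, C1s1, C2 and Cfb was called in these comparisons. Without replicate 1 or 3 of the IL-6 KO-labelled libraries, C3 and C4b were not called either. Leaving out 1 library, the log2 fold change of C3 ran from -1.59 to -0.44 against C57BL/6 and from -1.67 to -0.53 against BALB/c. Replicate 2 is singled out as the highest for these genes, so leaving it out had to lower their fold changes. Nothing is read from the calls made without it.

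**Figure D4:**
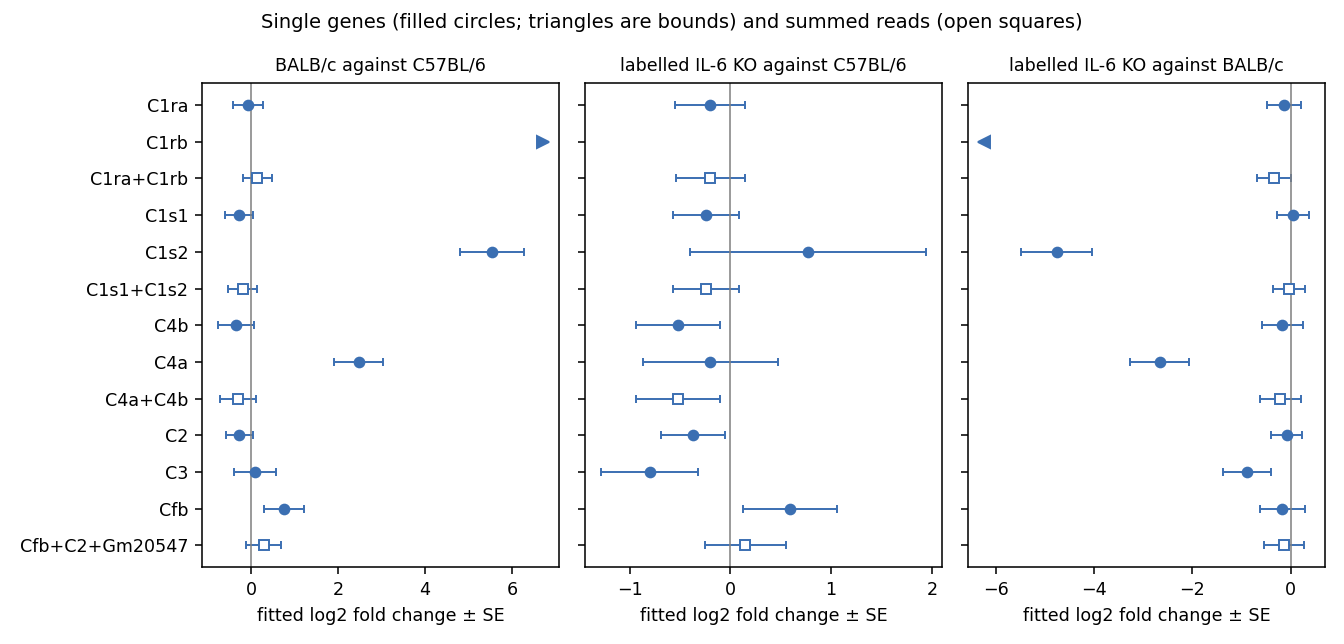
Fitted log2 fold change ± SE (horizontal axes, each panel with its own scale) of the 9 complement genes (filled circles) and of summed reads (open squares) in 3 comparisons, BALB/c against C57BL/6 and the IL-6 KO-labelled libraries against each of these strains; triangles are bounds against a floor of 3 reads, and C1rb has no value where both groups had 0 reads. C1s2 stands at 5.54 and C4a at 2.47 for BALB/c against C57BL/6. The sums of these pairs, made up mostly of the larger copies, stand at -0.20 and -0.31, beside -0.28 for C1s1 and -0.35 for C4b.

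Per length of exon (RPKM, reads scaled to exon length and library size), C3, C4b, C1s1, C1ra, Cfb and C2 had mean levels in this order in each of the 3 groups. C3 averaged 57.6 ± 42.7 RPKM in the IL-6 KO-labelled libraries, 107 ± 11.9 RPKM in BALB/c and 100 ± 38.5 RPKM in C57BL/6. At the other end of these 6, C2 averaged 9.23 ± 3.30 RPKM in the IL-6 KO-labelled libraries, 9.81 ± 1.99 RPKM in BALB/c and 12.0 ± 4.14 RPKM in C57BL/6. In the IL-6 KO-labelled libraries each neighbour in this order overlapped the next over libraries. In BALB/c only C4b and C1s1 overlapped, and in C57BL/6 only C1ra and Cfb did not. The lesser copies lay below C2 in each group, at 6.95 ± 0.693 RPKM for C1rb, 3.23 ± 0.254 RPKM for C1s2 and 1.47 ± 0.736 RPKM for C4a in BALB/c. In the IL-6 KO-labelled libraries and in C57BL/6 the lesser copies averaged at most 0.268 RPKM.

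Genes whose levels moved most alike over the 9 libraries were sought by the root mean square difference of centred log2 CPM, among genes of at least 5 CPM on average. For C1ra with C1rb these were Ncf1, a subunit of the phagocyte NADPH oxidase (0.102), Hexa, a lysosomal hexosaminidase (0.107), and Clec10a, a C-type lectin of macrophages and dendritic cells (0.119). The median over 12314 genes was 0.567. For C4b they were Sgce (0.197), Dtx3l (0.204) and Fam149a (0.206), where the median was 0.653. For C3 they were Pik3r6 (0.233), Enpep (0.237) and B3galnt1 (0.250), where the median was 0.833. The genes share libraries and depth, so these are descriptions.

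Markers of other cells of the skin moved with some of these values. Summed over 8 macrophage and dendritic cell markers, the level was 462, 1410 and 676 CPM in the IL-6 KO-labelled libraries, 649, 1040 and 1000 CPM in BALB/c and 1090, 514 and 766 CPM in C57BL/6. In each group the library with the highest sum also had the most C1ra. This did not hold for C4b and C3, which in BALB/c were highest in replicate 1, the library with the lowest sum. The fibroblast sum was also highest in the library with the most C1ra in the IL-6 KO-labelled libraries and in C57BL/6, but not in BALB/c. All 8 fibroblast markers were detected, at sums of 5340 to 17200 CPM in the IL-6 KO-labelled libraries, 4440 to 12000 CPM in BALB/c and 8310 to 52100 CPM in C57BL/6. The 8 keratinocyte markers summed to 10300 to 25500 CPM in the IL-6 KO-labelled libraries, 19600 to 22900 CPM in BALB/c and 13700 to 21500 CPM in C57BL/6. All 8 keratinocyte markers were detected in each group.

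Of 8 skeletal muscle markers, 8 were called lower in the IL-6 KO-labelled libraries against C57BL/6 and 7 against BALB/c, and all 9 markers of growing hair were called higher against each (edgeR). Of all genes tested, 16% were called lower and 19.2% higher against C57BL/6, and 17.4% lower and 19.9% higher against BALB/c. Of 8 keratinocyte markers, 1 was called higher against each and 1 lower against BALB/c (edgeR). Of 8 macrophage and dendritic cell markers, 1 was called lower against BALB/c, and 0 of 8 fibroblast markers were called (edgeR). The 1 hepatocyte marker tested was called lower against each (edgeR). The sums of 8 skeletal muscle markers were 9300 to 10300 CPM in the IL-6 KO-labelled libraries, 25800 to 54800 CPM in BALB/c and 55200 to 95500 CPM in C57BL/6. The 9 markers of growing hair summed to 2150 to 11100 CPM in the IL-6 KO-labelled libraries, 26.7 to 39.0 CPM in BALB/c and 30.4 to 99.9 CPM in C57BL/6, with Krt81 at 0 in BALB/c. In the IL-6 KO-labelled libraries, replicate 2 had the lowest hair sum and the highest macrophage, fibroblast and keratinocyte sums. Of 6 endothelial markers, 5 were called lower in the IL-6 KO-labelled libraries against C57BL/6 and 1 against BALB/c (edgeR), beside the 16% and 17.4% above. Of the same 6 markers, 1 was called lower in BALB/c against C57BL/6, beside 1.78% of all genes (edgeR). They summed to 130 to 170 CPM in the IL-6 KO-labelled libraries, 120 to 248 CPM in BALB/c and 264 to 418 CPM in C57BL/6. Of 6 adipocyte markers, 3 were called lower in the IL-6 KO-labelled libraries against BALB/c and 0 against C57BL/6 (edgeR). They summed to 666 to 1540 CPM in the IL-6 KO-labelled libraries, 1490 to 6720 CPM in BALB/c and 1370 to 2040 CPM in C57BL/6. Of 10 hepatocyte markers, Apoa1, Fga, Fgb and Fgg were at 0 in each group and Serpina1a and Apoh also in the IL-6 KO-labelled libraries, and the sum reached at most 6.86 CPM. The part of these cell types in the levels of complement genes was not tested.

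The rest of the complement system was read from a list of 44 genes, of which 43 were in the tables, 6 had 0 reads in each library and 25 were tested. For BALB/c against C57BL/6, 1 of the 25 was called (4%, beside 3.41% of all genes), with a median log2 fold change of -0.08 beside -0.01 for all genes. The gene was C5ar2, a second receptor of the C5a fragment, with 0 reads in each BALB/c library and 34 reads over the C57BL/6 libraries. C5ar2 was lower in BALB/c, at least 11.3-fold (adjusted p = 0.0154, edgeR), in 3 of 3 libraries. It passed the filter on low reads only through the groups where it has reads, so nothing is read from the count of 1. The call was lost with the replicate block (adjusted p = 0.0528, edgeR) and when 1 of 4 libraries was left out, C57BL/6 replicates 1 and 3 and BALB/c replicates 2 and 3 (adjusted p from 0.0533 to 0.0596, edgeR). Over the 15 alternatives that tested the gene, it ranged from 0.000452 to 0.0596.

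For the IL-6 KO-labelled libraries against C57BL/6, 2 of the 25 were called (8%, beside 35.2% of all genes), both lower, and the median log2 fold change was -0.36 beside 0.01. Vtn, which encodes vitronectin, a fluid-phase inhibitor of the membrane attack complex, had 3.43, 4.47 and 2.54 CPM in the IL-6 KO-labelled libraries and 16.3, 8.63 and 14.6 CPM in C57BL/6. These groups did not overlap, and Vtn was lower, with a log2 fold change of -1.91 ± 0.327 (adjusted p = 0.00237, edgeR). The BALB/c libraries, at 7.94, 6.80 and 5.34 CPM, also lay below each C57BL/6 library, without a call (adjusted p = 0.123, edgeR). For the IL-6 KO-labelled libraries against BALB/c the log2 fold change of Vtn was -0.94 ± 0.334, not called (adjusted p = 0.052, edgeR). Cd59a, which encodes the membrane-bound inhibitor of that complex, had 9.76, 12.2 and 7.84 CPM in the IL-6 KO-labelled libraries, 48.9, 27.9 and 29.1 CPM in BALB/c and 37.3, 28.9 and 46.1 CPM in C57BL/6. It was lowest in the IL-6 KO-labelled libraries, with log2 fold changes of -1.91 ± 0.287 against C57BL/6 (adjusted p = 0.00136, edgeR) and -1.83 ± 0.287 against BALB/c (adjusted p = 0.00155, edgeR). Without replicate 2 of the IL-6 KO-labelled libraries, 8 of 27 tested of the list (29.6%) were called against C57BL/6, beside 46.1% of all genes in that fit, all lower, with Cfd, Serping1 and Cd55 among them.

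For the IL-6 KO-labelled libraries against BALB/c, 5 of the 25 were called (20%, beside 37.2% of all genes), 2 higher and 3 lower, and the median was -0.33 beside 0.01. Clu, which encodes clusterin, another fluid-phase inhibitor, had 191, 145 and 117 CPM in the IL-6 KO-labelled libraries and 53.5, 90.4 and 67.7 CPM in BALB/c. It was higher, with a log2 fold change of 1.10 ± 0.243 (adjusted p = 0.0075, edgeR), and the groups did not overlap. C5ar2 was at least 11.5-fold higher (adjusted p = 0.0027, edgeR), with 25 reads over the IL-6 KO-labelled libraries and 0 in BALB/c, under the same limit of the filter. Fcna, a ficolin that starts the lectin pathway, was lower, with a log2 fold change of -1.63 ± 0.492 (adjusted p = 0.0279, edgeR), with 20.1 ± 10.3 CPM in the IL-6 KO-labelled libraries and 62.2 ± 15.5 CPM in BALB/c. Cd55, which encodes a membrane protein that breaks up C3-cutting enzymes, was lower, with a log2 fold change of -0.98 ± 0.302 (adjusted p = 0.0304, edgeR). Its levels of 37.5, 74.0 and 34.7 CPM in the IL-6 KO-labelled libraries overlapped with 70.7, 103 and 116 CPM in BALB/c. Fcna and Cd55 ceased to be called without replicate 1 or 3 of the IL-6 KO-labelled libraries or BALB/c replicate 2 or 3, with adjusted p from 0.0598 to 0.112. Fcna was also lost with the replicate block (adjusted p = 0.054, edgeR), and Cd55 with library-size scaling (adjusted p = 0.0541, edgeR) and with only the 2 groups compared (adjusted p = 0.0733, edgeR). Over all alternatives the adjusted p of Fcna ranged from 0.00401 to 0.0825 and that of Cd55 from 0.00166 to 0.112. Without replicate 2 of the IL-6 KO-labelled libraries, 12 of 27 tested (44.4%) were called beside 47.7% of all genes. Without BALB/c replicate 2, 3 of 26 (11.5%) were called beside 25.8% of all genes.

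The most abundant genes of each role put the 9 genes in context. Cfd, which encodes factor D, the protease that cuts factor B, had the highest mean of the list, 1250 RPKM over the 9 libraries. Serping1, the C1 inhibitor that blocks C1r and C1s, averaged 161 RPKM, and C1qa, a chain of C1q, 145 RPKM. C7 of the terminal pathway averaged 22.4 RPKM, the membrane regulator Cd55 15.4 RPKM and the integrin chain Itgb2 6.70 RPKM. Cd59a averaged 15.2 RPKM. Cd55 and Cd59a averaged 10.04 and 5.48 RPKM in the IL-6 KO-labelled libraries, 19.9 and 19.5 RPKM in BALB/c and 16.4 and 20.7 RPKM in C57BL/6, so their order differed between groups. Serping1 had 303 ± 143 CPM in the IL-6 KO-labelled libraries, 347 ± 123 CPM in BALB/c and 472 ± 140 CPM in C57BL/6, overlapping as C1ra and C1s1 did. Masp2, a lectin pathway protease named after its values were seen, had 0 reads over the IL-6 KO-labelled libraries, 42 over BALB/c and 3 over C57BL/6. It did not pass the filter on low reads with all 9 libraries, and is none of the 25. With no filter or without 1 library it was tested in 8 alternatives. Where the filter was used, Masp2 passed it through BALB/c alone. The 8 alternatives also share most of their libraries, so nothing is read from the counts of calls that follow. For BALB/c against C57BL/6 Masp2 was called higher in 3 of the 8 (adjusted p from 0.0267 to 0.133, edgeR). The IL-6 KO-labelled libraries were lower than BALB/c in 8 of 8 (adjusted p from 0.00244 to 0.0144, edgeR), at least 10.2-fold against the floor, and were called against C57BL/6 in 0 of 8 (adjusted p from 0.153 to 0.291, edgeR).

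**Figure D5:**
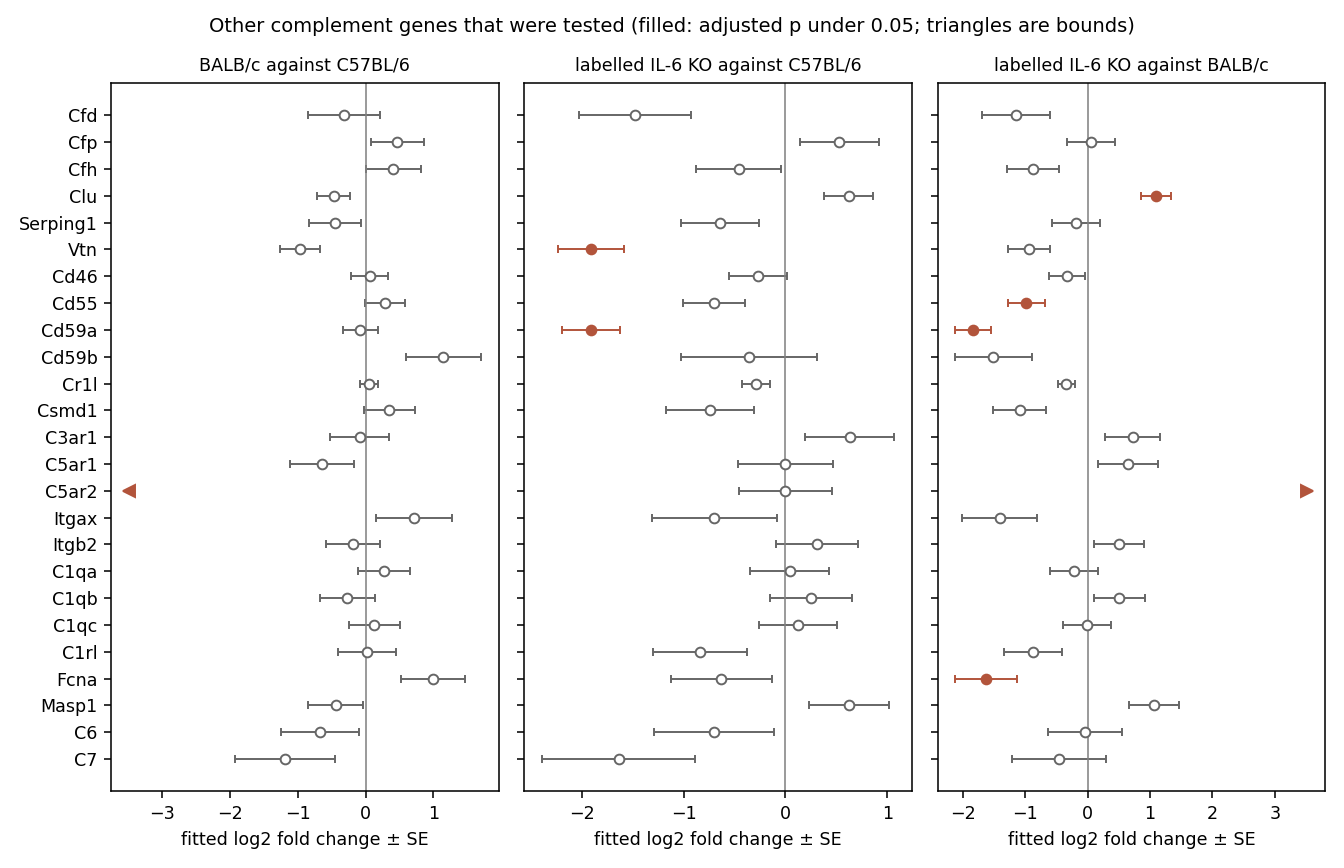
Fitted log2 fold change ± SE (horizontal axes, each panel with its own scale) of the 25 other complement genes that were tested, ordered by role, in 3 comparisons, BALB/c against C57BL/6 and the IL-6 KO-labelled libraries against each of these strains; filled points have an adjusted p under 0.05 and triangles are bounds for C5ar2, which had 0 reads in BALB/c. Vtn and Cd59a stand at -1.91 against C57BL/6.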

How the data were processed

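RNA-seq gene tables of 9 skin libraries were used. The deposited counts are raw total and unique exon reads per gene, per the file headers, and the genome build is GRCm38, per the submitters' processing notes; the aligner, read length and strandedness are not given in these sources. The file of C57BL/6 replicate 1 holds 3 stacked tables, of which the first was used. Other deposited columns, such as gene length, chromosome positions and junction or intron reads, were read as the authors deposited them. The 9 genes and all lists were chosen with earlier results of these data known.

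Total exon reads were fitted with edgeR 4.0.16 (R 4.3.3): filterByExpr (minimum count 10, minimum total 15), TMM factors of 0.887 to 1.10, 1 coefficient per group, 6 residual degrees of freedom, the quasi-likelihood test and Benjamini-Hochberg adjustment within a comparison. Pair sums rode in the fit outside library sizes and adjustment. Alternatives were DESeq2 1.42.0, RLE or library-size scaling, no filter, unique reads, a replicate block, only the groups compared and leaving out each library. Replicates differed beyond sampling noise (chi-square of 4.57 to 50.6 per degree of freedom). Named genes are the 9 genes, the called genes of the list and the most abundant of each role. Windows and alignments used GENCODE vM21 transcripts with Biopython 1.88, and figures matplotlib 3.10.9. The fit was tested on simulated data, whose outcome is not reported here, and no value above rests on it. Itgam is not analysed here.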

Additional observations from a re-analysis of the deposited data

How the results depend on the processing

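Over the 16 alternatives of each comparison no direction of a called result reversed. Genes called over all genes for BALB/c against C57BL/6 numbered 491, but 1033 with DESeq2, 254 with the replicate block and 167 to 970 leaving out 1 library. For the IL-6 KO-labelled libraries the counts were 5068 against C57BL/6 (3234 to 6804 leaving out 1 library) and 5369 against BALB/c (3310 to 7042). Library-size scaling turned the share of higher calls against C57BL/6 to 67.8% from 54.6% for the IL-6 KO-labelled libraries (median of all genes 0.15) and to 58.6% from 47.9% for BALB/c. Of the list of 25 other complement genes, 1 was called for BALB/c against C57BL/6, but 2 of 37 tested with no filter (the second is Masp2, none of the 25), 0 with the replicate block, 0 with only the 2 groups compared and 0 to 2 leaving out 1 library. Against C57BL/6 the IL-6 KO-labelled libraries gave 2 such calls, 4 with DESeq2 and 2 to 8 leaving out 1 library. Against BALB/c they gave 5, but 8 of 37 tested with no filter (of which 5 are among the 25), 3 with only the 2 groups compared and 3 to 12 leaving out 1 library, where 26 or 27 of the list were tested. Of the 9 genes, the counts called leaving out 1 library were 2 to 3 for BALB/c against C57BL/6, 0 to 2 for the IL-6 KO-labelled libraries against C57BL/6 and 3 to 5 against BALB/c. The share of C1rb in BALB/c was 16.3% per base, and that of C1s2 was 7.30% by unique reads and 5.95% per base. C5ar2 did not pass the filter with only the 2 groups compared, which removes its calls there, and the other causes were not tested. Replicate numbers do not pair the libraries: none of 9 same-numbered pairs correlated over 0.1 (-0.212 to 0.0617), none of the 9 libraries correlated best with its own number, and the block left 2 of 9 genes called for BALB/c against C57BL/6 (C1rb and C1s2, not C4a). C1rb, C1s2 and C4a rest on 0 to 10 reads in an IL-6 KO-labelled library and 0 to 13 in a C57BL/6 library, so depth limits their folds.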
